A study of Mus musculus with 18 samples.

Results

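Serine synthesis and one-carbon enzymes were followed through the mRNAs of 10 genes, taken by name (Phgdh, Psat1, Psph, Shmt1, Shmt2, Mthfd1, Mthfd1l, Mthfd2, Aldh1l2 and Gldc) from a table of 23420 gene symbols in mouse brain. All 18 libraries came from mice of the genotype Camk2a-Cre-Rpl22HA, in which the ribosomal protein Rpl22 carries an HA tag wherever the Camk2a-driven Cre recombinase was expressed, that is, mainly in excitatory neurons of the forebrain. Control mice had no tumor, tumor mice had glioma cells implanted in the cortex, and AZD mice had the tumor and were treated with AZD8055, which blocks the kinase mTOR at its ATP site. Input (total) RNA and RNA pulled down with the HA-tagged ribosomes (IP) were each sequenced in 3 libraries per condition, which gave 6 groups. The ages of the mice, the dose and the glioma cells are not given in the labels, and all groups, the controls included, share the genotype. Whether each library number stands for its own animal is not stated in the labels, and the p-values measure only the spread between libraries, part of which may be technical. Library totals lay between 13561511 and 34178417 counts. Library names carry 1 prefix for control and tumor input, another for control and tumor IP, and another for all 6 AZD libraries. The prefix therefore cannot be told apart from the drug in comparisons of AZD with tumor or control, nor from the fraction where IP was set against input in control or tumor.

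Serine is made from the glycolytic intermediate 3-phosphoglycerate by PHGDH, PSAT1 and PSPH in turn. SHMT1 in the cytosol and SHMT2 in mitochondria split serine into glycine and a one-carbon unit held on tetrahydrofolate. MTHFD2 and MTHFD1L carry that unit to formate in mitochondria, MTHFD1 takes formate up again in the cytosol, ALDH1L2 burns the mitochondrial unit to carbon dioxide, and GLDC is the decarboxylase of the glycine cleavage system. The units feed purine and thymidylate synthesis and the methionine cycle. In the adult brain PHGDH and GLDC are known chiefly from astrocytes and radial glia, and MTHFD2 is low in most adult tissues and high in embryonic and tumor cells. ATF4, a transcription factor of the cellular response to amino acid and other stress, induces Phgdh, Psat1, Shmt2, Mthfd2 and Aldh1l2 in cultured cells, and mTORC1 can act through ATF4.

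Levels are given as CPM, the counts of a gene relative to the TMM-scaled size of its library. Differences are log2 folds ± standard error from edgeR's quasi-likelihood test, and a gene was called where its Benjamini-Hochberg adjusted p over all tested genes was under 0.05. In these bulk samples fewer cells of a type and less RNA per cell cannot be told apart, so the summed CPM of marker genes is given here for reading beside every result. The 11 glioma-lineage markers summed to 629 to 715 CPM in control input, 6840 to 8029 in tumor input and 3180 to 4606 in AZD input. In IP they summed to 496 to 636 CPM in control, 5563 to 6049 in tumor and 614 to 847 in AZD. The 12 astrocyte markers summed to 8038 to 9319 CPM in control input, 5375 to 6628 in tumor input, 5625 to 6693 in AZD input, 7952 to 8508 in control IP, 4484 to 6158 in tumor IP and 1937 to 2559 in AZD IP. The 12 excitatory-neuron markers, which define the tagged cells, summed to 3781 to 3971 CPM in control input and 4560 to 5737 in control IP. They summed to 1485 to 2394 CPM in tumor input, 2453 to 3003 in tumor IP, 2092 to 2668 in AZD input and 6116 to 6811 in AZD IP. No marker of these lists was at 0 in all libraries of any group. Glioma-lineage and astrocyte mRNA was thus present in every IP group, with AZD IP the lowest in astrocyte and the highest in excitatory-neuron markers.

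The 10 genes lie at separate places in the genome (GRCm38 coordinates from RefSeq). Phgdh is at chr3:98313171-98339969, Psph at chr5:129765558-129787443, Mthfd2 at chr6:83305704-83326011 and Shmt1 at chr11:60788897-60811265. Mthfd1l (chr10:3972892-4167081), Aldh1l2 (chr10:83487447-83534146) and Shmt2 (chr10:127517123-127522444) share chromosome 10, Psat1 (chr19:15905123-15925059) and Gldc (chr19:30098441-30175441) share chromosome 19, and Mthfd1 is at chr12:76254406-76319820. Psph overlaps Cct6a and Shmt2 overlaps Ndufa4l2, and the use of strand in counting is not given in the sources used here, so shared reads cannot be told apart. Mthfd1l, Mthfd1, Aldh1l2 and Gldc overlap only predicted genes or a pseudogene, and a Phgdh pseudogene, Phgdh-ps1, lies on chromosome 7.

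Promoter windows of 300 bases, from 250 before to 50 after a start site given by RefSeq (GRCm38.p6), were found for 9 of the 10 genes, all but Aldh1l2. Psat1 has 2 windows, so there are 10 in all. The windows of Mthfd2 and Mthfd1 and 1 of the 2 Psat1 windows (chr19:15924573-15924872) lie wholly inside the gene spans given above, downstream of the outermost end on the 5′ side. All 10 windows were searched on both strands because most of these genes moved together, a search added after the values were seen. CCAAT, or ATTGG on the other strand, lay in 7 of the 10 windows, 1 each of Phgdh, Psat1, Psph, Shmt1, Mthfd1, Mthfd2 and Gldc, and in 37.4% of all 32851 promoter windows. The other Psat1 window does not hold it. The letters TGATGNAA, the composite element bound by ATF4 with C/EBP proteins, lay in 0 windows of the 9 genes and in 3.97% of all windows. The E-box CACGTG (7.15% of all windows) and the cyclic AMP response element TGACGTCA (1.79%) lay in none of the 9 genes' windows either, and TATAAA (13.6%) lay in that of Phgdh. No match says only that these letters are not in the window. The sequences are those of 3 enzymes that were high in tumor and lower with AZD, Phgdh (chr3:98339920-98340219, minus strand), Psat1 (chr19:15925010-15925309, minus) and Mthfd2 (chr6:83317555-83317854, minus), beside Mthfd1l (chr10:3972825-3973124, plus), which was high in tumor and not called lower with AZD. Capitals mark CCAAT and ATTGG.
Phgdh: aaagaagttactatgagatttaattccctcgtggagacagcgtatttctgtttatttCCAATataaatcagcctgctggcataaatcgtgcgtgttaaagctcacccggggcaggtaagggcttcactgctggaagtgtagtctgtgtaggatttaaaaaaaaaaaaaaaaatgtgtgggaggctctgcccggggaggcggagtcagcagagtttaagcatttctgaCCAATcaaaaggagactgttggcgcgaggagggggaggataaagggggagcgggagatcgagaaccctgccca
Psat1: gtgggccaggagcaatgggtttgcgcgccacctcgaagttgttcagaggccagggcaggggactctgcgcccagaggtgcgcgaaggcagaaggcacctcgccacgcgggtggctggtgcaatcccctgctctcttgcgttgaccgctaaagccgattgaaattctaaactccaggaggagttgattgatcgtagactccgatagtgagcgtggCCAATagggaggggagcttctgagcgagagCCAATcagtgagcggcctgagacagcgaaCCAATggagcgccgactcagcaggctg
Mthfd2: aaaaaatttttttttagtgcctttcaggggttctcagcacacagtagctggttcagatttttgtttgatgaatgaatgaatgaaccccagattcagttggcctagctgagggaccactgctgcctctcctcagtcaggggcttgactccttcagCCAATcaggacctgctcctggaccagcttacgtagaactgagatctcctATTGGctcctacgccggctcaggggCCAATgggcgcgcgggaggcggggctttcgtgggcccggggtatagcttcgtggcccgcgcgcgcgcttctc
Mthfd1l: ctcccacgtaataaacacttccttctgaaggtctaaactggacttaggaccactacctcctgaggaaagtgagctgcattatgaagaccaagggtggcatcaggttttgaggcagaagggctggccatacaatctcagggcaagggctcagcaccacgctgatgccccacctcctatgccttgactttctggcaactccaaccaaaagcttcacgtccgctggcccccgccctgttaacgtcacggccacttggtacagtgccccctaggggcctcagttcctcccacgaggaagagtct
The first 3 windows hold the motif 2, 3 and 3 times, and the Mthfd1l window does not hold it. These 4 windows do not stand for all the genes. The Shmt2 window holds 0 and Shmt2 was called lower with AZD in both fractions, while the Mthfd1 window holds 1 and Mthfd1 was called lower in neither. Whether the motif bears on the AZD differences was not tested.

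**Figure D1:**
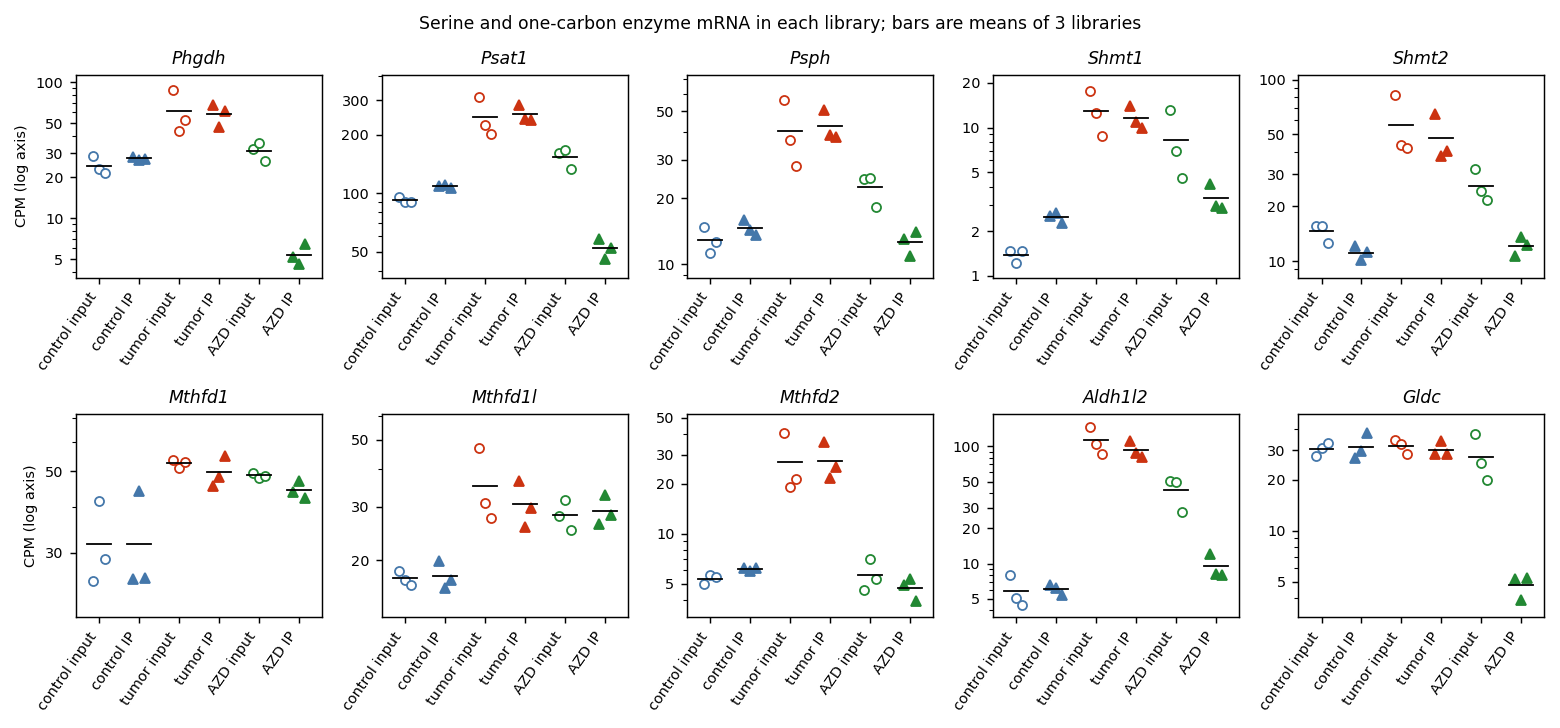
CPM of each of the 10 enzyme mRNAs (log axis, a separate scale per gene) in the 18 libraries, with input as open circles, IP as filled triangles and bars for the mean of 3 libraries. The tumor libraries stand above the control libraries in 9 panels, and Gldc is low only in AZD IP, at 3.87 to 5.27 CPM.

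Tumor against control asks how the cortex with implanted glioma differs from cortex without, in whole tissue and in the ribosome pull-down, with both groups of a fraction under 1 library prefix. In IP 9 of the 10 enzyme mRNAs were higher in tumor and 0 lower, where 26.1% of all 15734 genes tested were called higher. In input 9 were also higher and 0 lower, where 24.5% of 15511 genes were called higher. The median log2 fold of the 10 was 1.42 in IP and 1.52 in input, beside 0.02 and -0.01 over all genes tested. In each fraction 9 of the 10 had groups that did not overlap, as did 60.3% of all genes in IP and 60.0% in input. The exception in both fractions was Gldc. The glioma-lineage sums given above were also higher in tumor in every library, with all 11 markers called higher in both fractions. The 12 proliferation markers moved with the same comparison. They summed to 48.7 to 67.0 CPM in control input and 804 to 868 in tumor input, and to 59.7 to 77.6 CPM in control IP and 663 to 764 in tumor IP, with 12 of 12 called higher in each fraction and a median log2 fold of 4.84 in input and 4.74 in IP. How much of the enzyme differences goes with either list was not tested here.

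The 3 enzymes of serine synthesis rose by similar steps. Phgdh, the first and committed enzyme, had 28.6, 23.0 and 21.5 CPM in the control input libraries and 87.4, 43.9 and 52.5 CPM in tumor input. Every tumor library lay above every control library, with library 1 the highest. In IP Phgdh stood at 28.3, 26.9 and 27.4 CPM in control and at 67.8, 46.4 and 61.2 CPM in tumor, again without overlap. Its log2 fold was 1.31 ± 0.24 in input (edgeR adjusted p = 0.00169) and 1.12 ± 0.15 in IP (adjusted p = 0.000231). Psat1, the aminotransferase of the second step, went from 109, 110.2 and 107 CPM in control IP to 283, 241 and 238 CPM in tumor IP. The control libraries were close together and all far below the tumor libraries, at a log2 fold of 1.26 ± 0.11 (adjusted p = 9.15e-06), and of 1.40 ± 0.16 in input (adjusted p = 9.72e-05). Psph, the phosphatase that releases serine, went from 16.0, 14.3 and 13.7 CPM to 50.8, 39.1 and 38.3 CPM in IP, a log2 fold of 1.58 ± 0.15 (adjusted p = 1.39e-05). In input its log2 fold was 1.63 ± 0.24 (adjusted p = 0.000501).

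The mitochondrial folate enzymes were all higher in tumor, by widely different amounts. Aldh1l2, the mitochondrial 10-formyltetrahydrofolate dehydrogenase, had 7.95, 5.10 and 4.40 CPM in control input and 145, 105 and 86.0 CPM in tumor input. In IP it went from 6.55, 6.21 and 5.41 CPM to 112, 87.6 and 80.9 CPM. The lowest tumor library was thus many times above the highest control library in either fraction, and the log2 folds were 4.25 ± 0.32 in input (edgeR adjusted p = 6.36e-06) and 3.98 ± 0.20 in IP (adjusted p = 2.01e-07), or 19.1-fold and 15.8-fold. Mthfd2, the dehydrogenase and cyclohydrolase, went from 4.96, 5.65 and 5.44 CPM in control input to 40.6, 19.2 and 21.3 CPM in tumor input. In IP it went from 6.19, 5.94 and 6.21 CPM to 35.6, 21.6 and 25.3 CPM. No library overlapped, and the log2 folds were 2.32 ± 0.29 (adjusted p = 0.000149) and 2.20 ± 0.20 (adjusted p = 1.14e-05). Shmt2, the mitochondrial serine hydroxymethyltransferase, rose by 1.92 ± 0.26 in input and 2.13 ± 0.20 in IP on the log2 scale. Mthfd1l, the formate-producing synthetase, rose less, from 16.6 to 18.4 CPM in control input to 27.6 to 46.9 CPM in tumor input (log2 fold 1.00 ± 0.19) and by 0.82 ± 0.15 in IP.

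Of the cytosolic enzymes, Shmt1, the serine hydroxymethyltransferase, was sparsely counted in control. It had 22 to 24 counts per control input library, or 1.46, 1.22 and 1.47 CPM, against 17.5, 12.4 and 8.76 CPM in tumor input. In IP it went from 2.54, 2.65 and 2.29 CPM to 14.1, 10.98 and 9.97 CPM. The groups did not overlap, and the log2 folds were 3.21 ± 0.42 in input (edgeR adjusted p = 0.000202) and 2.26 ± 0.21 in IP (adjusted p = 1.27e-05). Mthfd1, the trifunctional cytosolic enzyme, differed least among the called members. Its control IP libraries stood at 25.5, 44.2 and 25.7 CPM and its tumor IP libraries at 45.6, 48.3 and 55.1 CPM. Control library 2 nearly reached the tumor libraries, in IP as in input (41.4 CPM against 51.0 to 53.8). The log2 fold was 0.68 ± 0.19 in IP (adjusted p = 0.0136), and the call was lost without control IP library 1 or 3 (adjusted p = 0.0578 and 0.0567).

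Gldc, the glycine decarboxylase, was the member without a called difference between tumor and control. Its control input libraries had 27.7, 30.6 and 33.0 CPM and its tumor input libraries 34.4, 32.5 and 28.5 CPM. In IP the values were 26.8, 29.7 and 37.8 CPM in control and 28.3, 33.7 and 28.5 CPM in tumor. The groups overlapped in both fractions, and the log2 folds were 0.05 ± 0.20 (edgeR adjusted p = 0.865) and -0.03 ± 0.15 (adjusted p = 0.894).

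One tumor library carried the highest values. Tumor input library 1 was the highest of its group for all 10 enzymes and tumor IP library 1 for 8 of them. That input library also had the highest glioma-lineage sum of its group (8029 CPM against 6840 and 7409) and the lowest excitatory-neuron sum (1485 CPM against 2351 and 2394). Without it the same 9 members were called higher in input, with log2 folds of 0.96 for Phgdh, 1.90 for Mthfd2 and 4.02 for Aldh1l2.

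**Figure D2:**
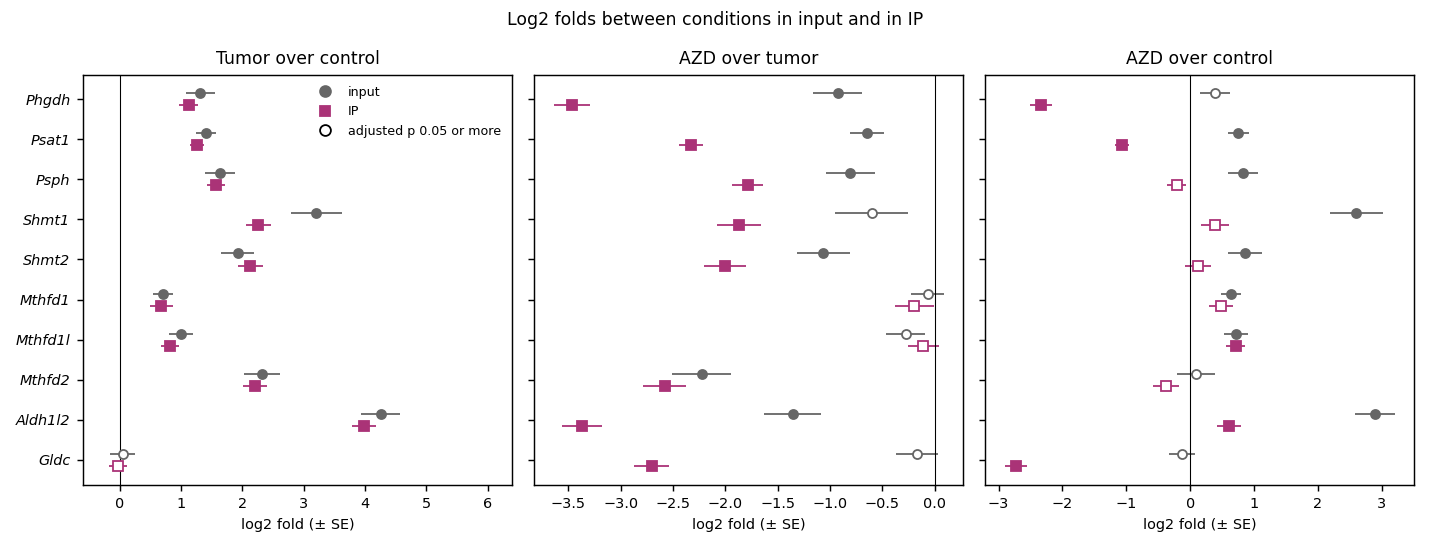
Log2 folds with standard errors for the 10 enzymes between conditions, in input (grey circles) and IP (purple squares), with open symbols where the adjusted p was 0.05 or more. Tumor over control lies to the right for 9 enzymes in both fractions, and AZD over tumor lies further to the left in IP than in input for 9, all but Mthfd1l, with the widest gaps for Gldc (-2.71 against -0.17) and Phgdh (-3.47 against -0.93).

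AZD against tumor asks what differed in tumor-bearing cortex after mTOR inhibition. It shares the tumor libraries with the comparison above, so the values of the 2 comparisons are only set side by side. In input 6 of the 10 were lower with AZD and 0 higher, where 9.17% of all genes tested were called lower. Mthfd2 differed most. Its AZD input libraries stood at 4.58, 7.02 and 5.35 CPM, against 40.6, 19.2 and 21.3 CPM in tumor input. The AZD libraries overlapped the control libraries and none reached a tumor library, with a log2 fold of -2.23 ± 0.29 (edgeR adjusted p = 0.000807). Aldh1l2 fell to 50.8, 49.7 and 27.4 CPM, which is below the tumor libraries and above the control libraries, with a log2 fold of -1.36 ± 0.27 (adjusted p = 0.00815). Shmt2 (-1.06 ± 0.25), Phgdh (-0.93 ± 0.24), Psph (-0.81 ± 0.23) and Psat1 (-0.65 ± 0.16) were also called, at adjusted p of 0.018 to 0.0388. Shmt1 (-0.60 ± 0.35), Mthfd1l (-0.28 ± 0.19), Gldc (-0.17 ± 0.20) and Mthfd1 (-0.07 ± 0.16) were not.

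The calls of the smaller of these input differences depended on single libraries. Without AZD input library 3, the calls of Phgdh, Psat1, Psph and Shmt2 were lost (adjusted p = 0.0746 to 0.138) and Mthfd2 and Aldh1l2 were left. Without AZD input library 2, Mthfd2, Aldh1l2 and Psat1 were left. The log2 folds of the uncalled Phgdh (-1.02), Shmt2 (-1.01) and Psph (-0.88) then stayed near those with all libraries. Over all genes, 1410 were called without library 2 and 1359 without library 3, in place of 2646. Without AZD input library 1, which had the highest proliferation sum (984 CPM against 425 and 346), Shmt1 was called lower (-1.14, edgeR adjusted p = 0.032) and Psph was not (0.0534). Without tumor input library 1 the log2 folds shrank to -0.58 for Phgdh, -0.68 for Shmt2 and -0.49 for Psph, and the last lost its call (adjusted p = 0.0783). Mthfd2 kept a log2 fold of -1.81 without that library.

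All 11 glioma-lineage markers were lower in AZD input than in tumor input, so each enzyme was also set against their sum, a ratio chosen after the values were seen and given without a test. Mthfd2 stood at 2.81 to 5.06 CPM per 1000 CPM of glioma-lineage markers in tumor input and at 0.995 to 1.83 in AZD input. It was the member of the 10 whose AZD libraries all lay below its tumor libraries on this scale, as did 0.632% of all genes tested. The ranges of Phgdh (6.41 to 10.9 in tumor, 7.05 to 9.24 in AZD), Psat1, Psph, Shmt1, Shmt2 and Aldh1l2 (11.6 to 18.1 and 8.61 to 13.0) overlapped. Mthfd1 (6.70 to 7.46 and 10.8 to 15.3), Mthfd1l and Gldc lay higher in AZD on this scale, as did 77.5% of all genes tested. The counts depend on the markers chosen. Per summed astrocyte markers 5 members lay below in AZD (Phgdh, Psat1, Shmt2, Mthfd2 and Aldh1l2) and 0 above, where 15.4% of all genes lay below. Per summed proliferation markers, which spread widely in AZD input (346 to 984 CPM), Mthfd2 alone of the 10 lay below and 0 above, where 0.780% of all genes lay below. Mthfd2 was thus below on each of the 3 scales in input, all of which share its CPM as numerator. In IP it lay below per astrocyte markers (1.54 to 2.59 in AZD, 3.51 to 7.94 in tumor). Its IP ranges overlapped per proliferation markers (20.5 to 44.2 in AZD, 28.3 to 53.7 in tumor). They also overlapped per glioma-lineage markers, with AZD reaching higher (5.32 to 8.73 in AZD, 3.88 to 6.08 in tumor).

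**Figure D3:**
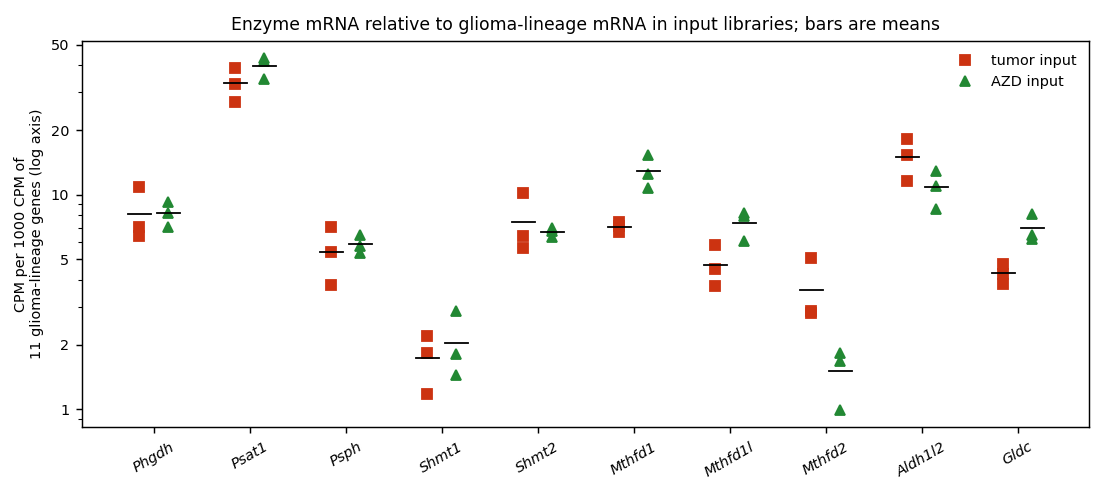
Each enzyme's CPM per 1000 summed CPM of the 11 glioma-lineage markers (log axis) in the tumor input libraries (squares) and AZD input libraries (triangles), with bars for the means. Mthfd2 is the enzyme whose AZD libraries, at 0.995 to 1.83, all lie below its tumor libraries, at 2.81 to 5.06.

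In IP the drug comparison was wider. Between AZD IP and tumor IP 8 of the 10 were lower and 0 higher, where 33.5% of all genes tested were called lower. Phgdh stood at 5.15, 4.57 and 6.47 CPM in AZD IP against 67.8, 46.4 and 61.2 CPM in tumor IP, without overlap and with a log2 fold of -3.47 ± 0.18 (edgeR adjusted p = 2.15e-07). Aldh1l2 stood at 12.2, 8.18 and 8.02 CPM, a log2 fold of -3.37 ± 0.19 (adjusted p = 3.96e-07). Gldc, which had not differed by a called amount between tumor and control, stood at 5.15, 3.87 and 5.27 CPM against 28.3 to 33.7 CPM in tumor IP. All 3 AZD IP libraries lay far below every other library of the study for this gene, with a log2 fold of -2.71 ± 0.17 (adjusted p = 7.5e-07). Mthfd2 (-2.58 ± 0.21), Psat1 (-2.33 ± 0.12), Shmt2 (-2.003 ± 0.20), Shmt1 (-1.87 ± 0.21) and Psph (-1.79 ± 0.15) were lower as well. Mthfd1 (-0.19 ± 0.19, adjusted p = 0.403) and Mthfd1l (-0.11 ± 0.15, adjusted p = 0.554) were not called, and Mthfd1l stood at 26.3, 32.8 and 28.2 CPM in AZD IP beside 36.6, 25.7 and 29.7 CPM in tumor IP, with overlapping groups. The same comparison moved 12 of 12 astrocyte markers and 11 of 11 glioma-lineage markers lower and 12 of 12 excitatory-neuron markers higher. Inhibitory-neuron (9 of 10), oligodendrocyte, microglia, endothelial and pericyte (10 of 10 each) and proliferation markers (12 of 12) were lower too. The part of these marker shifts in the enzyme values was not tested.

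Set against control, AZD input kept part of the tumor difference. In input 7 of the 10 were higher in AZD than in control and 0 lower, where 20.7% of all genes tested were called higher. They were Aldh1l2 (2.90 ± 0.31), Shmt1 (2.60 ± 0.42), Shmt2 (0.86 ± 0.26), Psph (0.83 ± 0.24), Psat1 (0.76 ± 0.16), Mthfd1l (0.72 ± 0.19) and Mthfd1 (0.64 ± 0.16). Mthfd2 was not called, at 5.65 ± 1.25 CPM in AZD input and 5.35 ± 0.35 CPM in control input (SD, n = 3), and nor were Phgdh (0.39 ± 0.24) and Gldc (-0.13 ± 0.20). Without control input library 3 the count was 4, since Psph, Shmt2 and Mthfd1l lost their calls (edgeR adjusted p = 0.0527 to 0.0949). Psph also lost its call without AZD input library 1 or 2 or control input library 2 (edgeR adjusted p = 0.0667 to 0.0809). Shmt2 lost its call without AZD input library 1 or control input library 1 or 2 (0.0562 to 0.0992), and Mthfd1l without AZD input library 2 (0.051). In IP 2 members were higher in AZD than in control and 3 lower, where 16.0% of all genes were called higher and 17.4% lower. The 3 lower ones were Gldc (-2.73 ± 0.17), Phgdh (-2.34 ± 0.17) and Psat1 (-1.06 ± 0.11). In the same comparison 11 of 12 astrocyte markers were called lower. So were 10 of 10 markers each of inhibitory neurons, oligodendrocytes, microglia, and endothelial cells and pericytes. Of the 11 glioma-lineage markers 4 were higher and 3 lower, while 9 of 12 proliferation and 5 of 12 excitatory-neuron markers were higher. The part of these shifts in the enzyme values was not tested. Mthfd1l was higher (0.71 ± 0.15, edgeR adjusted p = 0.00481). Aldh1l2 was higher by 0.61 ± 0.19 (adjusted p = 0.0315), a call lost without AZD IP library 1, without any 1 of the control IP libraries (adjusted p = 0.0522 to 0.103), with plain library totals, with a mean of at least 5 CPM and in a fit of all 18 libraries (0.0504 to 0.099). Mthfd1 missed the threshold (0.49 ± 0.19, adjusted p = 0.0733), and was called with DESeq2 (adjusted p = 0.0341), with the library number as a block (0.0422) and without control IP library 2 (0.80, adjusted p = 0.00123).

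Over the 6 groups Aldh1l2 was ordered from control input (5.82 ± 1.88 CPM, SD, n = 3) and control IP (6.06 ± 0.58) through AZD IP (9.46 ± 2.36) and AZD input (42.6 ± 13.2) to tumor IP (93.4 ± 16.2) and tumor input (112 ± 30.4). The libraries of the 2 control groups overlapped, as did those of the 2 tumor groups. Phgdh was ordered from AZD IP (5.40 ± 0.97 CPM) through control input (24.4 ± 3.77), control IP (27.5 ± 0.72) and AZD input (31.4 ± 4.76) to tumor IP (58.5 ± 10.9) and tumor input (61.3 ± 23.0). Its AZD IP libraries stood apart from all others, the range of its AZD input libraries overlapped the ranges of both control groups, and tumor IP overlapped tumor input.

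IP against input within a condition asks whether an mRNA is enriched with the tagged ribosomes. In tumor 0 of the 10 were called, and 0 had an unadjusted p under 0.05, where edgeR called 5.09% of all genes. Their log2 folds lay between -0.25 ± 0.23 (Aldh1l2) and 0.08 ± 0.27 (Psph), and none of the 10 was among the 322 genes that edgeR called enriched in tumor IP over its input. Of the 12 excitatory-neuron markers 0 were called there either, at a median log2 fold of 0.35. Absence from the 322 genes therefore cannot tell whether an mRNA is enriched in the tagged cells. With the library number as a block, Aldh1l2 was called lower (-0.24, adjusted p = 0.0246), as edgeR then called 5433 genes in place of 776. In control Psat1 (0.22 ± 0.07) and Shmt1 (0.82 ± 0.24) were higher in IP and Shmt2 was lower (-0.41 ± 0.12), where 17.7% of all genes were called higher and 18.8% lower. Those adjusted p of 0.0162 to 0.0364 did not hold in a fit of all 18 libraries, where 0 were called, and leaving out single libraries gave 0 to 3 calls.

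In the AZD libraries the fractions parted. Set beside control or tumor, the effect of the drug on this split cannot be told apart from the prefix of the AZD libraries. In AZD 7 of the 10 were lower in IP than in input and 0 higher, where 32.5% of all genes tested were called lower, and all 6 of these libraries carry the same prefix. Phgdh (32.5, 35.5 and 26.2 CPM in input, 5.15, 4.57 and 6.47 in IP) was lower by a log2 fold of -2.53 ± 0.18 (edgeR adjusted p = 3.42e-05). Gldc (37.4, 25.0 and 19.8 CPM in input, 5.15, 3.87 and 5.27 in IP) was lower by -2.53 ± 0.26 (adjusted p = 0.000114). For both genes every IP library lay well below every input library. Aldh1l2 (-2.19 ± 0.26), Psat1 (-1.55 ± 0.12), Shmt1 (-1.33 ± 0.38), Shmt2 (-1.09 ± 0.18) and Psph (-0.82 ± 0.17) were also lower. The Shmt1 value was -0.80 without AZD input library 1, and its call was lost without AZD IP library 3 (adjusted p = 0.052). Mthfd1l (0.05 ± 0.13), Mthfd1 (-0.12 ± 0.09) and Mthfd2 (-0.25 ± 0.23) were not called, although Mthfd1 was called lower with plain library totals (-0.40) or when only genes of at least 5 CPM were tested (-0.24, adjusted p = 0.0404). Over numbered pairs, the median IP over input of the excitatory-neuron markers was 0.28 ± 0.10 in control, 0.34 ± 0.17 in tumor and 1.38 ± 0.23 in AZD (log2, SD over 3 pairs). That of the astrocyte markers was -0.06 ± 0.10, -0.15 ± 0.13 and -2.26 ± 0.24, and that of the glioma-lineage markers was -0.27 ± 0.10, -0.37 ± 0.12 and -2.21 ± 0.11. Inhibitory-neuron markers (-0.10 ± 0.05, -0.15 ± 0.18 and -1.82 ± 0.27) and endothelial and pericyte markers (-0.48 ± 0.22, -0.46 ± 0.13 and -2.68 ± 0.33) were low in AZD too, as were those of oligodendrocytes (-2.22), microglia (-2.49) and proliferation (-2.11). The pull-down in AZD thus held fewer counts, relative to input, of all 7 lists other than the excitatory-neuron one, and the part of this in the enzyme ratios was not tested.

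**Figure D4:**
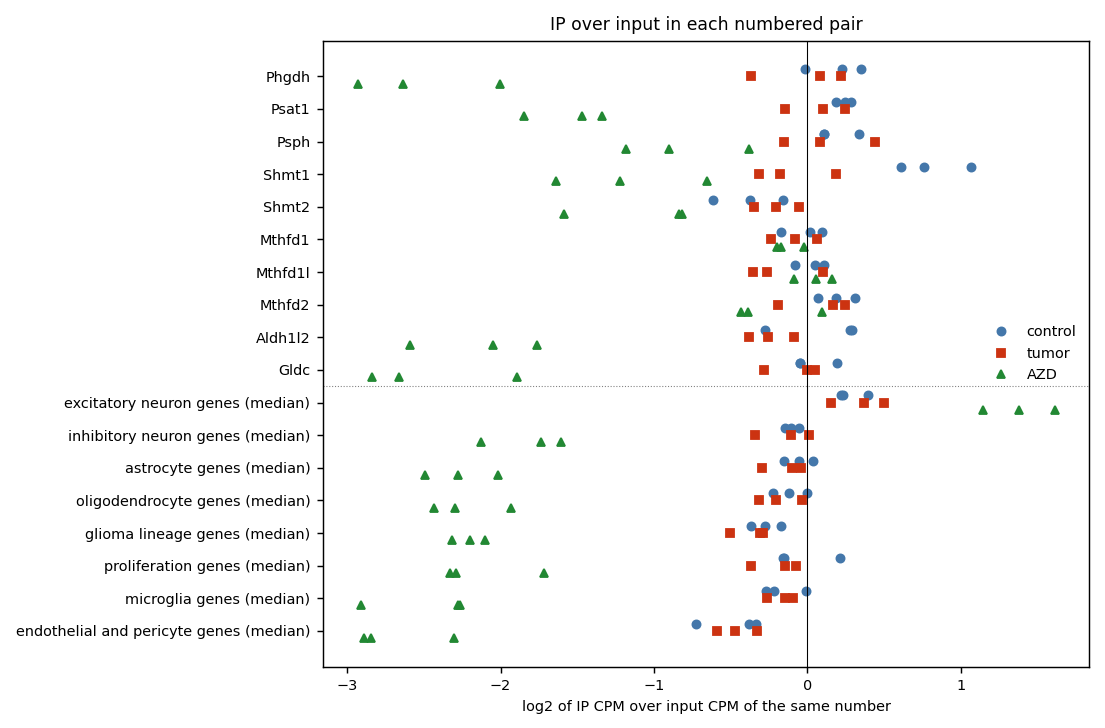
Log2 of IP over input CPM in each of the 3 numbered pairs per condition, for the 10 enzymes and for the median of each marker list below the dotted line. The tumor pairs of the enzymes lie between -0.38 and 0.44 and the control pairs between -0.61 and 0.35 apart from Shmt1 (0.61 to 1.07). The AZD pairs of Phgdh (mean -2.52) and Gldc (-2.46) lie about as far left as those of several marker lists. These are the endothelial and pericyte (-2.68), microglia (-2.49), astrocyte (-2.26), oligodendrocyte (-2.22), glioma-lineage (-2.21) and proliferation (-2.11) markers. The AZD pairs of Mthfd1, Mthfd1l and Mthfd2 lie between -0.43 and 0.16.

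The change of the IP over input ratio was tested as a contrast in all 18 libraries. Between tumor and control 0 of the 10 were called and 0 had an unadjusted p under 0.05, where edgeR called 0.0687% of all 16016 genes (DESeq2 also called 0 members). The log2 differences lay between -0.99 ± 0.47 (Shmt1) and 0.17 ± 0.35 (Shmt2). Between AZD and tumor 6 were lower and 0 higher, where 20.8% of all genes were called lower. These were Phgdh (-2.48 ± 0.32), Gldc (-2.48 ± 0.28), Aldh1l2 (-1.96 ± 0.36), Psat1 (-1.62 ± 0.20), Shmt1 (-1.21 ± 0.44) and Psph (-0.93 ± 0.29). Shmt2 missed the threshold (-0.88 ± 0.35, edgeR adjusted p = 0.0586) and was called with the library number as a block (-0.88, adjusted p = 0.000207). The calls of Shmt1 (adjusted p = 0.0427) and Psph (0.0234) were lost in a fit of only the 12 libraries of both conditions (0.1 and 0.0591), which left 4 of the 6. Both were also lost without AZD IP library 2, AZD input library 1, tumor IP library 1, or tumor input library 2 or 3. Without AZD input library 1 the Shmt1 value was -0.68.

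Around the 10 genes, other steps of the pathway were read from lists of known genes, and the counts are to be read beside those over all genes tested. In tumor IP against control IP 26.1% of all genes were called higher and 20.9% lower, and in input 24.5% and 23.6%. In AZD IP against tumor IP 25.1% were called higher and 33.5% lower, and in input 7.89% and 9.17%. Of 16 tested enzymes of serine, glycine and folate metabolism outside the 10, 7 rose and 3 fell between control IP and tumor IP. Tyms, the thymidylate synthase (3.11 ± 0.25), and Ggh, the folate hydrolase (1.12 ± 0.18), rose. Aldh1l1, the cytosolic counterpart of Aldh1l2 and an astrocyte marker, fell (-0.79 ± 0.13, edgeR adjusted p = 0.000734). Between AZD IP and tumor IP 3 were higher and 9 lower, Tyms (-2.14 ± 0.24) among the lower, while Srr, the serine racemase, was higher (0.73 ± 0.08). Srr was lower with AZD in input (-1.12 ± 0.12), and its IP over input ratio rose between tumor and AZD (1.91 ± 0.14, adjusted p = 9.79e-08), opposite in direction to Phgdh. Of 14 tested transporters of serine, glycine and folate, 5 were higher and 1 lower in tumor IP, with the amino acid carriers Slc38a2 (0.98 ± 0.11) and Slc1a4 (0.84 ± 0.16) and the glycine carrier Slc6a9 (0.88 ± 0.14) higher. With AZD in IP 1 was higher and 11 lower against tumor, including Slc6a9 (-1.95 ± 0.15) and the astrocyte carrier Slc7a10 (-2.55 ± 0.30).

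Genes of the pathways that use one-carbon units were called in both directions. Of 10 tested methionine-cycle and transsulfuration genes, 3 rose and 3 fell in tumor IP, with Mtap, the methylthioadenosine phosphorylase, up by 1.85 ± 0.23 and Mat2b, a subunit of the S-adenosylmethionine synthetase, down at -0.71 ± 0.16. Between AZD IP and tumor IP 1 was higher and 4 lower, Cbs (-1.83 ± 0.20) and Mtap (-2.06 ± 0.24) among the lower. The shares of the methionine list are near those of all genes. Of 13 purine-synthesis genes, 8 rose and 4 fell in tumor IP, with Impdh2 (0.93 ± 0.13), Pfas (0.86 ± 0.13) and Atic (0.53 ± 0.11), the enzyme that uses the second formyl unit of the purine ring, higher. With AZD in IP 4 were higher and 5 lower, and in input 1 was higher and 1 lower (Atic, -0.63 ± 0.18).

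Atf4 and its known targets were read beside the enzymes. Atf4 mRNA stood at 82.7 ± 6.66 CPM in control input, 176 ± 45.1 in tumor input and 91.4 ± 5.71 in AZD input (SD, n = 3). Its log2 fold was 1.08 ± 0.16 for tumor over control and -0.91 ± 0.16 for AZD over tumor in input (edgeR adjusted p = 0.000554 and 0.00463), and 1.16 ± 0.14 and -0.87 ± 0.14 in IP. Its IP over input ratio did not change by a called amount between tumor and AZD (0.09 ± 0.22, adjusted p = 0.774), unlike that of Phgdh. Of 26 tested ATF4 targets outside the 10, 20 were higher and 0 lower in tumor IP, and 22 higher and 1 lower in tumor input. Over all genes tested 26.1% were called higher in tumor IP and 24.5% in tumor input. With AZD 14 of these targets were lower and 0 higher against tumor in input, among them Chac1 (-1.65 ± 0.23), Sesn2 (-1.57 ± 0.26) and Aldh18a1 (-1.41 ± 0.24). In IP 22 were lower and 1 higher. Over all genes tested 9.17% were called lower with AZD in input and 33.5% in IP. Slc7a5, a subunit of the large neutral amino acid carrier (-1.87 ± 0.17), and Atf5 (-2.22 ± 0.22) were lower in AZD IP, while Asns, the asparagine synthetase, was not called there (-0.12 ± 0.19). The marker sums given above moved between the same libraries, and their part in these counts was not tested.

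The genes with the most similar course over the 6 groups were found for the 3 members of widest range, as the root mean square difference of centred log2 group means among 9985 genes of at least 10 CPM on average. They were Mmp15 (0.16), Lhfpl3 (0.19) and Calcrl (0.21) for Aldh1l2, whose group means span 4.26 on the log2 scale. For Phgdh (span 3.43) they were Pcsk6 (0.11), Gpr37l1 (0.12) and Fam181b (0.18), and for Shmt1 (span 3.09) Pcdhb5 (0.17), Mcm5 (0.17) and Pcdhb2 (0.18). These are descriptions over 6 group means from the same libraries.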

How the data were processed

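The authors deposited raw counts of reads per gene symbol for 18 libraries, not normalized. Per the labels, an RNeasy Mini kit gave the RNA and a directional NEBNext Ultra kit the libraries. STAR, DESeq2 and the build mm10 are listed in the submitters' processing notes. Their versions, the counter, its annotation and whether it used strand are not stated in those notes or labels. Library totals lay between 13561511 and 34178417 counts, and low counts limit precision chiefly for Shmt1.

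The 10 members and all lists were chosen with earlier results of these data known. Every member was named. From each pathway list, the text may name up to 4 called genes, those of smallest adjusted p, and up to 2 uncalled ones, those of largest p, with Atf4 and Aldh1l1 always. After TMM scaling and filterByExpr, 11 comparisons were tested over all genes by the quasi-likelihood F test of edgeR 4.0.16 in R 4.3.3. Benjamini-Hochberg adjusted p under 0.05 made a call. Conditions were compared in a fit of the 9 libraries of a fraction, fractions in a fit of each condition, and changes of IP minus input as a contrast in all 18 libraries. Log2 CPM used a prior count of 2. The code was tested on simulated data. Alternatives were DESeq2 1.42.0, RLE scaling, plain totals, a mean of at least 5 CPM, no filter, all 18 libraries (for IP minus input, only the 12 of both conditions), a replicate block, and leaving out each library.

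Same-number input and IP libraries deviated together from their groups (r across 11864 genes between 0.322 and 0.371 for control pairs, between 0.665 and 0.887 for tumor pairs, and between 0.299 and 0.633 for AZD pairs, each highest with its own number), so numbers pair input with IP. The main tests did not use this pairing, which entered the tests only through the replicate block. Of the 23420 symbols, 21571 were found in RefSeq for GRCm38. Plots used matplotlib 3.10.9 (Python 3.11.15).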

Additional observations from a re-analysis of the deposited data

Results flagged for a closer look

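In 6 enzymes the difference between AZD and tumor was itself different in IP and in input, by the contrast of IP minus input in edgeR. In that contrast 20.8% of all 16016 genes were called lower, and of the 5296 genes called in either direction 37.2% were higher. All AZD libraries share 1 prefix while tumor input and tumor IP carry different ones, so prefix and drug cannot be told apart here. The log2 differences were -2.48 for Phgdh (edgeR adjusted p = 2.78e-05), -2.48 for Gldc (8.35e-06), -1.96 for Aldh1l2 (0.000663), -1.62 for Psat1 (2.02e-05), -1.21 for Shmt1 (0.0427) and -0.93 for Psph (0.0234). In these 6, AZD minus tumor was lower in IP than in input by that amount. Shmt2 (-0.88, edgeR adjusted p = 0.0586), Mthfd1 (-0.07), Mthfd1l (0.22) and Mthfd2 (-0.30) were not called in the contrast. The split is not sharp, since Shmt2 was called with DESeq2 (adjusted p = 0.0469). Shmt1 and Psph lost their calls in a fit of only the 12 libraries of both conditions. The glioma-lineage markers (10 of 11), astrocyte markers (11 of 12), microglia markers (9 of 10), oligodendrocyte markers (9 of 10), inhibitory-neuron markers (8 of 10), endothelial and pericyte markers (10 of 10) and proliferation markers (10 of 12) were called lower in the same contrast, and 8 of 12 excitatory-neuron markers were called higher. Their part in the enzyme differences was not tested.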

How the results depend on the processing

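No member's called log2 fold changed sign under any alternative run. Over members, comparisons and alternatives, 1473 values kept their side of the threshold, 61 lost a call and 15 gained one. The number of members called was within 1.5 times its main value under all settings other than leave-outs, except for IP against input. There it was 1 with a mean of at least 5 CPM and 0 in a fit of all 18 libraries for control (3 in the main fit of that condition), and 1 with the replicate block for tumor (0 without). Leaving out each library in turn gave 8 to 9 called members for tumor against control in IP and 9 in input, and 8 for AZD against tumor in IP and 2 to 6 in input. It gave 4 to 5 for AZD against control in IP and 4 to 7 in input, 0 to 3 for IP against input in control, 0 in tumor and 6 to 7 in AZD. For IP minus input it gave 0 between tumor and control and 4 to 7 between AZD and tumor. The causes were not tested.

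With the block, which pairs input and IP of a number, 5433 genes were called in tumor IP against input in place of 776, 8025 in place of 5296 for IP minus input between AZD and tumor, and 67 in place of 11 between tumor and control. Among members, besides Aldh1l2 and Shmt2 as given above, it changed no call in the comparisons of fractions. Across conditions same-number libraries correlated at r from -0.106 to 0.399. Each number matched its own number best for control and tumor in IP and for control and AZD in input, but not in the other pairs of groups. Whether a number stands for anything shared across conditions was not tested. The block moved the call of Mthfd1 between AZD and control in IP (edgeR adjusted p = 0.0422). In tumor IP against input DESeq2 called 1728 genes, a fit of all 18 libraries 2225, a mean of at least 5 CPM 451, and single left-out libraries as few as 120. Other counts over all genes that moved by over 1.5 times were 1410 and 1359 for AZD against tumor in input without AZD input library 2 or 3 (2646 with all), 3429 for AZD against control in IP without control IP library 2 (5246), and 3760 and 3737 in input without AZD input library 1 or control input library 2 (5703). The 11 genes called for IP minus input from control to tumor became 40 with DESeq2, 17 with plain totals, and 5 to 20 without single libraries.

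Plain library totals moved the median log2 fold of all genes to -0.30 for AZD IP against input (share of calls that were higher 25.8% in place of 47.2%), to -0.22 for IP minus input between AZD and tumor (17.7% in place of 37.2%), to -0.23 for AZD against tumor in IP, and to -0.11 for control IP against input (31.6% in place of 48.4%). They also moved the share to 30.4% in place of 41.5% for tumor IP against input. Counts limited Shmt1 most, at 22 to 24 counts per control input library.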
